A study of Rattus norvegicus with 12 samples.

Results

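Srf (serum response factor) and 9 genes of the actin cytoskeleton that are known as its targets, Actb, Actg1, Vcl, Zyx, Tpm1, Fhl2, Myh9, Tagln and Flna, were followed in PC12 cells over the first 120 min of PACAP38 treatment. They were taken by gene name alone, as every probe whose name on the array was 1 of these symbols, which gave 19 probes of 10 genes out of 41012 probes with 33212 gene names. PC12, a line of rat pheochromocytoma cells, a tumour of the adrenal medulla, extends neurites when it is given the neuropeptide PACAP38. The treated cells received PACAP38 at 1e-07 M for 5, 10, 15, 30, 60 or 120 min, and control RNA of the same time point was labelled beside theirs. Both were grown in coated dishes in RPMI medium with fetal bovine and horse serum, and the labels name no agent for the controls. RNA of each time point was pooled (n = 6), for the control and for PACAP38 separately, and both pools were hybridized together on 2 arrays with the dyes Cy3 and Cy5 exchanged. Both arrays of a time point thus hold the same RNA, a time point is 1 replicate, and its error is shown only by how far the folds of these 2 arrays lie apart.

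SRF is a transcription factor that binds the CArG box, a short DNA element of CC and GG around 6 bases that are A or T. It works through partners of 2 kinds. Ternary complex factors (Elk1, Elk3, Elk4) answer to the MAP kinase pathway and switch on immediate early genes such as Fos and Egr1, while myocardin-related factors (Mrtfa, Mrtfb) sense the pool of unpolymerised actin and act on genes of the actin cytoskeleton. Actin filaments fill the growth cone of an extending neurite, which is why these genes are of interest beside a neurite-inducing peptide.

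Through the first 30 min the mean folds of the 7 measurable genes lay between 0.701 and 1.19 on their brightest probes, and no probe of these genes reached the 2-fold limit on both arrays at any time point. At 120 min Flna, which encodes the actin cross-linking protein filamin A, stood at 2.92-fold and 1.93-fold the control on the 2 arrays, just short of that limit on the latter. The cytoplasmic gamma-actin gene Actg1 stood at 1.52-fold and 1.47-fold, and the brightest probe of Srf itself stood below the control, at 0.585-fold and 0.573-fold. Zyx, Fhl2 and Tagln gave no signal well above background in either RNA on any array.

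CArG boxes in the promoters show which of these genes carry the element near their start. In the RefSeq promoter windows (build GRCr8, 250 bases before to 50 after each annotated start) 8 of the 10 genes had at least 1 window, 11 in all. Actb and Tagln were not matched. An exact box, which as a pattern reads the same on both strands, was present in windows of Srf, Actg1 and Fhl2, that is in 3 of the 8 genes or 37.5%, beside 1.77% of all 27457 genes in that table. The members were chosen as known SRF targets, so this share describes the choice and is no result. The Srf promoter holds a pair of boxes, 81 and 61 bases before the start, and Actg1 holds 1 box 90 bases before the start. The stretches are printed to show these elements beside the genes' expression, with the boxes in capitals.
Srf, GRCr8 chr9:21923980-21924039, plus strand: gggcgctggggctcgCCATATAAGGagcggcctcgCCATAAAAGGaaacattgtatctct
Actg1, GRCr8 chr10:106121017-106121056, minus strand: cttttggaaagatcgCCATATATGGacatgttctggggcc
Fhl2, GRCr8 chr9:52923360-52923399, minus strand: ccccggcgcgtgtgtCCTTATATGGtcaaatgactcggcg
Fhl2, GRCr8 chr9:52954611-52954650, minus strand: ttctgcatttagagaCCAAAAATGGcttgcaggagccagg
No exact box was found in the windows of Vcl, Zyx, Tpm1, Myh9 and Flna, which says only that these letters are not in these windows. The 3 genes with a box differed from each other on the arrays: the brightest Srf probe was below the control at 120 min, Actg1 was above it, and Fhl2 was not measurable.

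How brightly a gene's probe shone limits what can be said of it. Among all probes of the control channel, the brightest Actb probe lay at the 99.9th percentile (median of 12 arrays), that of Actg1 at 99.5, Srf at 93.9, Tpm1 at 90.5, Vcl at 87.9, Flna at 78.7 and Myh9 at 65.5. In these 7 genes the control RNA gave signal well above background on all 12 arrays. The single probes of Fhl2, Zyx and Tagln lay at 42.9, 38.0 and 15.5 and were well above background on none. These are ranks of probe brightness, and probes differ in how well they bind, so they are not relative amounts of RNA. PC12 cells showed their own markers: all 9 chromaffin and sympathoadrenal markers on the array (Th, Dbh, Chga and others) had control signals well above background on every array. Of 10 smooth muscle and fibroblast markers 6, among them the defining genes Myh11 and Des, were well above background on no array, as were Ptprc and Aif1 of leukocytes and Gfap of glia. Of all these markers 1 was called by the rule given next, Scg2, a secretory granule protein, at 120 min (2.04-fold).

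The rule for a call asked, on each array of the time point, for a spot p-value under 0.01 and a fold of no less than 2 (higher) or no more than 0.5 (lower). Of the member probes 15 could be called at each time point, but 14 at 10 min, since at least 1 RNA had to be well above background on both arrays. None was called. At 5 min this was also so for all probes tested (0.0% higher and 0.0% lower). At 120 min 4.24% of 18586 probes were called higher and 3.37% lower, so that fewer than 1 of 15 probes would be called in each direction at that rate, and the members' count of 0 is not set apart from the background. In between, the share of all probes called higher was 0.158% by 10 min, 0.214% by 15 min, 0.594% by 30 min and 1.79% by 60 min, and the share called lower was 0.0%, 0.0635%, 0.245% and 0.782% in the same order. With a limit of 1.5-fold, Flna was called higher and the brightest Srf probe lower at 120 min, beside 6.63% and 8.5% of all probes. The median log2 ratio of the 15 member probes was 0.18 at 120 min (range from -0.79 to 1.25), while that of all probes was -0.03. RNA of whole cultures was measured, so fewer cells with a transcript and less of it per cell cannot be told apart.

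**Figure D1:**
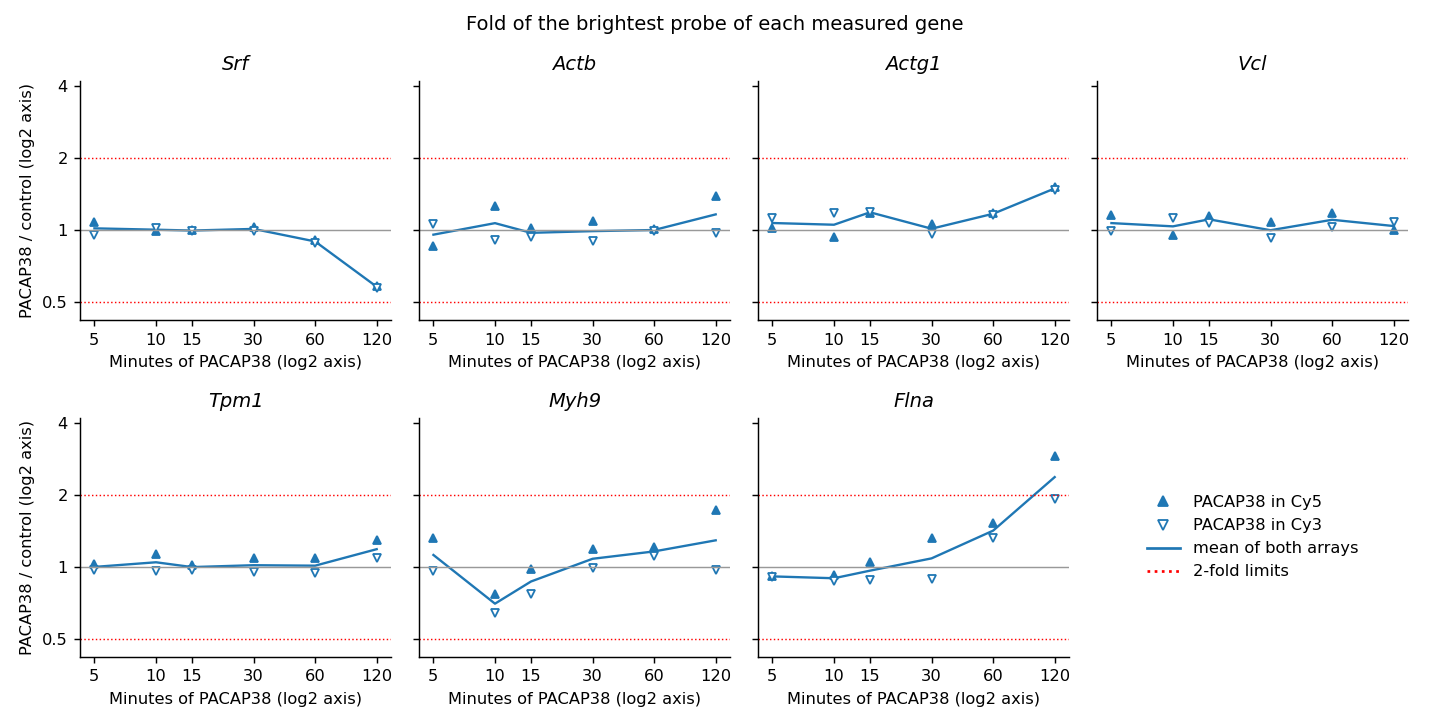
Fold of PACAP38 over control (log2 axis) against minutes of treatment (log2 axis) for the brightest probe of each of the 7 measurable genes. Filled and open triangles are the 2 arrays with the dyes exchanged, the line is their geometric mean and dotted lines mark 2-fold. Only Flna, with a mean of 2.37 at 120 min, leaves the dotted band on an array, and only Srf, at 0.579, lies below the control on both arrays by more than 1.5-fold.

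Flna was measured by 1 probe, which lies over an exon junction on rn4 (chrX:160384442-160385117, plus strand). Its sequence is given because the largest member difference rests on it alone.
Flna probe: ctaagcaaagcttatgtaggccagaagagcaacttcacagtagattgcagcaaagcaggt
With PACAP38 in Cy5 its folds were 0.915, 0.921, 1.05, 1.32, 1.52 and 2.92 from 5 to 120 min, and with PACAP38 in Cy3 they were 0.907, 0.870, 0.883, 0.890, 1.31 and 1.93. Both arrays were below the control for the first 10 min and above it from 60 min, and in the 15 and 30 min pools they lay on opposite sides. The control signal of Flna ranged from 254 to 452 over the 12 arrays, and the PACAP38 signal went from 299 and 328 at 5 min to 1258 and 872 at 120 min. The spot p-values at 120 min were 6.06e-10 and 2.23e-05. Between 60 and 120 min, which lie on the same slide, the log2 ratio differed by 0.74. Across the 6 time points the log2 ratio gained 0.29 per doubling of time (SE 0.059), and limma's adjusted p over 20255 probes was 0.074, short of the threshold. The mean of 30, 60 and 120 min exceeded that of 5, 10 and 15 min by 0.74 (SE 0.28, limma adjusted p = 0.367), or by 0.43 without 120 min, 0.43 after normexp and loess and 0.29 after normexp with median centring.

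The slope of Flna depends on how time is scaled. Fitted on minutes in place of log2 minutes, it was 0.74 per hour with a limma adjusted p of 0.0024, in a fit that called 10.2% of all probes rising and 16.1% falling. With the slide as a block it was 0.30 per doubling of time (limma adjusted p = 0.895), and without the 120 min time point 0.18 per doubling. With each array centred on its median ratio, Flna was called higher at 120 min, and after normexp background correction with loess its mean fold there was 1.71 and its slope 0.18 per doubling, or 1.504 and 0.13 after normexp with median centring.

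By mean fold of the processed signals the actin genes were furthest above the control at 120 min, but not after normexp with median centring. Actg1 (1 probe, rn4 chr10:109774296-109774461, minus strand) had folds of 1.02, 0.939, 1.18, 1.06, 1.18 and 1.52 with PACAP38 in Cy5 and of 1.12, 1.18, 1.19, 0.964, 1.16 and 1.47 with PACAP38 in Cy3. Both arrays were above the control at 5, 15, 60 and 120 min, and the 120 min values lay above all others. After normexp with median centring its mean fold was 1.39 at 15 min and 1.35 at 120 min. The spot p-values at 120 min were 0.00447 and 0.00829. Its slope of 0.084 per doubling of time (SE 0.041) did not pass (limma adjusted p = 0.231). It was 0.021 without the 120 min time point, 0.053 with the arrays of PACAP38 in Cy3 alone, 0.029 after normexp with median centring and 0.033 with the slide as a block.

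Actb, the beta-actin gene that is widely used as an unchanging reference, had 2 probes. One of them is spotted 10 times per array (rn4 chr12:12049595-12049654, plus strand) and gave folds of 0.964, 1.16, 1.07, 1.12, 1.15 and 1.65 with PACAP38 in Cy5 and of 1.03, 0.915, 1.02, 0.948, 0.990 and 1.13 with PACAP38 in Cy3. At 120 min the 10 spots had a mean log2 ratio of 0.72 (SD 0.032) on the first array and 0.18 (SD 0.019) on the second. The spots of an array thus varied far less than the 2 arrays of the same RNA differed, and the spread of spots understates the error of a fold. The brighter Actb probe (rn4 chr12:12049710-12049893) was at 1.39 and 0.971 at 120 min, on both sides of the control. After normexp with median centring its mean fold was 1.203 at 10 min and 1.09 at 120 min. That of the repeated probe was then 1.26 at 15 min and 1.23 at 120 min. Neither slope passed (limma adjusted p = 0.183 and 0.432). On minutes the repeated probe did, with 0.22 per hour (limma adjusted p = 0.030).

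The probe of Actg1 and the brighter Actb probe target the same coding stretch of the actin genes, and their sequences show how far signal could be shared. They overlap by 43 bases, of which 39 are identical (90.7%), and capitals mark the 4 that differ.
Actb probe: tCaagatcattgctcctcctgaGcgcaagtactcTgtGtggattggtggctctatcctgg
Actg1 probe: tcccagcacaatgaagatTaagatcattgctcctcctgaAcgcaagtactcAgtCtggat
The repeated Actb probe shares no such stretch with the Actg1 probe. How much of either signal came from the other actin was not tested. The 120 min folds of these probes were 1.16 for the overlapping Actb probe, 1.37 for the repeated Actb probe and 1.49 for Actg1.

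**Figure D2:**
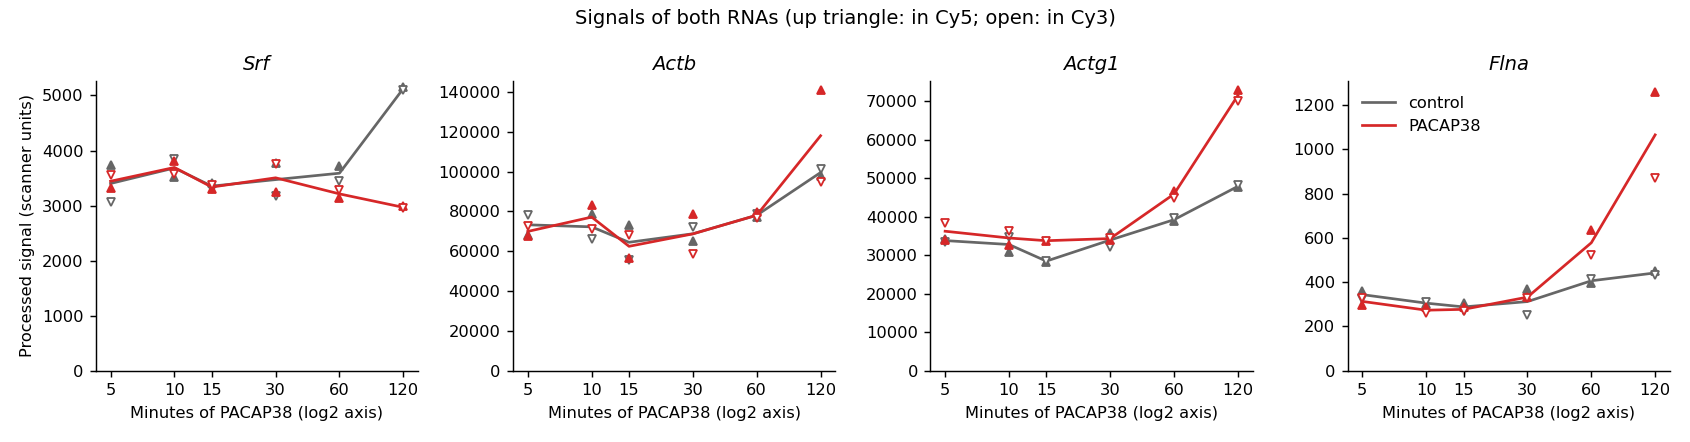
Processed signals in scanner units (linear axis from 0) of the brightest probes of Srf, Actb, Actg1 and Flna against minutes of treatment (log2 axis). Grey is the control and red PACAP38, filled triangles are the RNA in Cy5, open triangles that in Cy3, and lines are means. At 120 min both PACAP38 signals of Actg1 and Flna lie above both control signals, those of Srf lie below, and those of Actb overlap with them.

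Srf had 3 probes, which disagreed. The brightest (A_43_P15205, rn4 chr9:9797512-9797571, plus strand) had folds of 1.08, 0.988, 1.00, 1.03, 0.910 and 0.585 with PACAP38 in Cy5 and of 0.954, 1.02, 0.990, 0.995, 0.882 and 0.573 with PACAP38 in Cy3. Up to 30 min the values lay on both sides of 1 or close to it, and at 60 and 120 min both arrays were below the control. The spot p-values at 120 min were 0.000345 and 0.000213. There the control signal was 5152 and 5099, above the 3069 to 3854 of the other time points, while the PACAP38 signal was 2984 and 2952. Scaled to the 75th percentile of its channel, the control stood at 4.03 on the log2 scale at 120 min, within the 3.81 to 4.28 of the other time points, and PACAP38 stood at 3.26, below its 3.66 to 4.28 elsewhere.

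The slope of this probe was -0.15 per doubling of time (SE 0.052), which did not pass (limma adjusted p = 0.138). On minutes it was -0.42 per hour (limma adjusted p = 0.0092), without 120 min it was -0.04 per doubling, and with the slide as a block it was -0.21 per doubling (limma adjusted p = 0.895). Between 60 and 120 min, on 1 slide, the log2 ratio differed by -0.63.

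The second Srf probe (A_44_P143061, rn4 chr9:9796049-9796108) showed no such difference. Its folds were 1.33, 1.58, 1.24, 1.21, 1.19 and 1.28 with PACAP38 in Cy5 and 0.755, 1.01, 0.902, 0.973, 0.960 and 0.736 with PACAP38 in Cy3. The arrays with PACAP38 in Cy5 were above those with it in Cy3 at every time point, so the folds differed by dye throughout, and the mean at 120 min was 0.971. Its control signal of 53.4 to 176 was far below that of the brightest probe. The last Srf probe (A_43_P10479, rn4 chr9:9790956-9791015) was well above background on no array and gives no fold. It lies 6556 bases upstream of the brightest probe and 5093 bases upstream of the second, by the array's coordinates. The array's annotation assigns all 3 probes to Srf, and where they lie relative to the end of its transcript was not analysed here.
Srf probe A_43_P10479: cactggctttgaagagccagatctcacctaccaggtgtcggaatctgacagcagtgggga
The lower value of Srf at 120 min therefore rests on 1 probe, as the second, dimmer probe did not show it and the last could not be read.

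**Figure D3:**
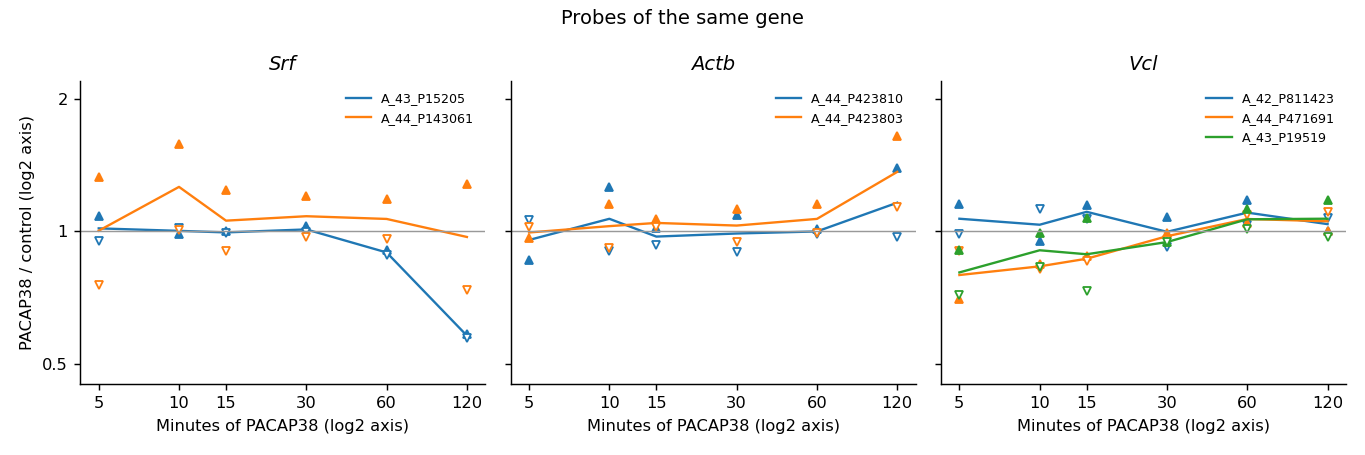
Folds of PACAP38 over control (log2 axis) against minutes of treatment (log2 axis) for each measurable probe of Srf, Actb and Vcl, with filled and open triangles for PACAP38 in Cy5 and in Cy3 and lines for their means. At 120 min the Srf probes stand at 0.579 and 0.971, the Actb probes at 1.16 and 1.37, and the Vcl probes between 1.04 and 1.07.

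Vcl, Tpm1 and Myh9, which link, stabilise and pull on actin filaments, had no probe called and no slope that passed. Vinculin (Vcl) had 3 probes. The brightest (rn4 chr15:3478800-3478859) had mean folds between 0.998 and 1.11 at all 6 time points. The other two overlap by 40 identical bases, so they are not independent, and went from 0.796 and 0.807 at 5 min to 1.05 and 1.07 at 120 min. Their slopes of 0.10 (SE 0.025) and 0.090 (SE 0.025) per doubling had limma adjusted p of 0.0856 and 0.0969, and that of the brightest probe was -0.0033 (SE 0.027, limma adjusted p = 0.947). After normexp and loess the overlapping probes were at 0.929 and 0.938 at 5 min. After normexp with median centring the brightest probe was at 0.862 at 120 min, below the control.

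Tropomyosin 1 (Tpm1), which lies along the actin filament, was measured by 5 probes. Its brightest probe (rn4 chr8:71336933-71336989) had mean folds of 0.998, 1.04, 0.997, 1.01, 1.01 and 1.18, and at 120 min its arrays gave 1.29 and 1.09. The other probes lay between 1.07 and 1.18 at 120 min, and between 0.866 and 1.08 before it. After normexp with median centring the brightest Tpm1 probe was at 0.966 at 120 min, below the control. No slope of a Tpm1 probe exceeded 0.04 per doubling, and their limma adjusted p ranged from 0.423 to 0.957. The probe over rn4 chr8:71340840-71341650 was well above background on only 1 array at 10 min.

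Non-muscle myosin heavy chain 9 (Myh9), the motor that contracts actin bundles, had 1 dim probe with control signals of 51.3 to 101. Its folds were 1.31, 0.767, 0.982, 1.18, 1.21 and 1.72 with PACAP38 in Cy5 and 0.956, 0.640, 0.766, 0.984, 1.11 and 0.967 with PACAP38 in Cy3. Both arrays were below the control at 10 and 15 min and above it at 60 min, and at 120 min they lay on opposite sides. Its slope was 0.11 (SE 0.067, limma adjusted p = 0.318).

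Zyxin (Zyx) and Fhl2 are proteins of focal adhesions, and transgelin (Tagln) is a marker of smooth muscle. Their control signals were 8.62 to 14.1, 6.65 to 32.5 and 4.21 to 20.7. All lay below the software's limit for signal well above background, so no fold is given for them, and a change in these genes was not detectable here.

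The difference between the swapped arrays gives the measuring error of these values. Over all probes the median difference between the 2 arrays of a time point was 0.19 to 0.28 on the log2 scale, and over the member probes it was 0.10 to 0.26. At 120 min the members' folds differed between arrays by up to 0.83. Both arrays hold the same pools, so this spread is technical and holds no variation between cultures, and in 5% of all probes at 120 min it was above 1.55. The log2 ratios of Flna (1.25 at 120 min), Actg1 (0.58) and the brightest Srf probe (-0.79) were larger in size than the median spread and had the same direction on both arrays. The arrays disagreed in direction for Actb on its brighter probe and for Myh9. Flna stood at the 95.9th percentile of all log2 ratios at 120 min, Actg1 at the 89.5th and Srf at the 9.0th, so many other probes lay further from the control.

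Other genes under SRF were read from lists of known partners and targets, on the brightest probe of each gene. The immediate early targets are genes known to answer within minutes. By 10 min 6 of the 9 callable ones were higher, by 30 min 8 of 10, by 60 min 9 of 11 and by 120 min 9 of 10, beside 0.185%, 0.658%, 1.78% and 4.1% of all genes. Their median log2 ratio was 3.65 at 30 min, while that of the 7 measurable members was 0.02 and that of all genes -0.02. Egr1, a zinc finger transcription factor, went from 15.3-fold in the 10 min pool through 60.7-fold (30 min) to 9.72-fold (120 min). Fos, a subunit of AP-1, stood at 16.8-fold after 10 min and 18.2-fold after 120 min. The size of these folds depends on the background correction: after normexp and loess Egr1 stood at 32.1-fold (30 min) and 5.19-fold (120 min), and Fos at 3.32-fold (10 min) and 4.80-fold (120 min). Junb, Egr4, Ier2, Nr4a1 and Arc were called from 10 or 15 min on and stood between 2.15-fold and 14.2-fold at 120 min (Egr4 at 13.1-fold, or 4.26-fold after normexp and loess). Mcl1, which protects from apoptosis, was called at 120 min on its brightest probe (3.77-fold), and its other probe was called at 60 min (2.26-fold) and 120 min (4.46-fold). Egr2 was called at 60 min (at least 2.22-fold) and Egr3 was at least 42.2-fold at 60 min, as their control RNA was not well above background. These bounds rest on the processed signals after Aquantile normalization of the channels between arrays, and after normexp and loess the folds were 1.15 for Egr2 and 5.14 for Egr3. A second Egr3 probe was well above background in neither RNA at any time point. No test of the difference between lists was made.

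A second list held other cytoskeletal targets of SRF. Of 36 genes, 32 were on the array and 27 could be called at 120 min, of which 3 were called higher and 0 lower, beside 4.1% and 3.82% of all genes. Their median log2 ratio was 0.32 at 120 min, with 23 of 27 above 0, and that of the 7 members was 0.24, with 6 of 7 above 0, beside -0.04 over all genes. These counts are of the processed signals and depend on the scaling. After normexp with median centring several genes turned below the control, among them Dstn (0.931), Tpm3 (0.970) and Pdlim7 (0.979). The members Vcl (0.862) and Tpm1 (0.966) turned as well, while Flna (1.504) and Actg1 (1.35) stayed above it, as did Actn4 (1.25) of the list. Tpm4, a tropomyosin found in non-muscle cells, was called in the 60 min pool, as the single gene of this list (2.16-fold, but 1.92-fold after normexp and loess), and again after 120 min (4.88-fold and 4.04-fold). Tpm1 stood at 1.01 and 1.18 in these pools, so the fold of Tpm4 was larger than that of Tpm1 on every array of both. Csrp1, an actin-bundling LIM protein, was called at 120 min at 2.07-fold and 2.01-fold, just past the limit, and its mean fold was 1.90 after normexp and loess and 1.63 after normexp with median centring. Ankrd1, a nuclear and sarcomeric ankyrin repeat protein, was at 25.6-fold and 16.02-fold at 120 min, where its control RNA was well above background on 1 of 2 arrays, and its mean fold was 20.2 but 3.13 after normexp and loess. Wdr1 (1.84), Actc1 (1.82, but 1.11 after normexp with median centring), Actn4 (1.61) and Cfl1 (1.54) were not called. Of the 22 genes whose control RNA was well above background on all arrays, none passed for slope after adjustment. An unadjusted limma p under 0.05 was found for 11 with a rising slope and 0 with a falling one, beside 12% and 18.8% of all probes with such a control. The list was chosen with earlier results of these data known, so this count is a description and was not tested. Over all probes, 5811 had an unadjusted limma p under 0.05 in the main fit and 947 with the slide as a block.

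**Figure D4:**
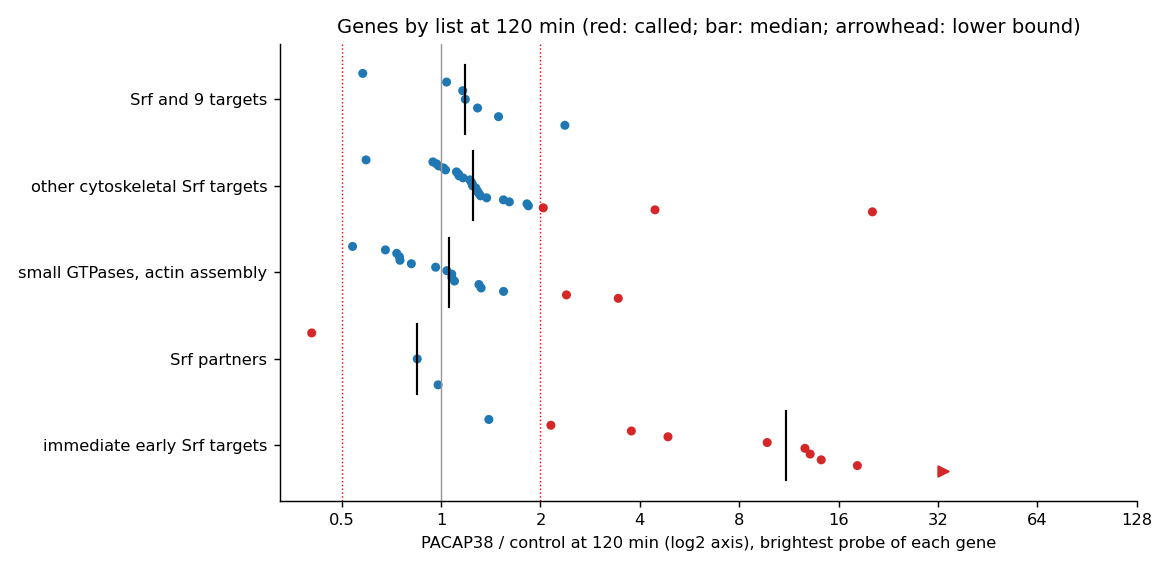
Fold of PACAP38 over control at 120 min (log2 axis) for the brightest probe of each callable gene, by list. Points are genes (red where called on both arrays), black bars are medians, dotted lines mark 2-fold and the arrowhead is a lower bound for Egr3. No member is red, 3 of 27 other cytoskeletal targets are, and 9 of 10 immediate early targets are.

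Of the partners of SRF on the list 5 were on the array (Elk1, Elk3, Elk4, Mrtfa and Myocd) and 3 could be called at 120 min, of which 1 was called lower and 0 higher, beside 3.82% and 4.1% of all genes. Mrtfa, the actin-sensing coactivator of SRF, was that call (0.383-fold and 0.430-fold, with a mean fold of 0.506 after normexp and loess, short of the limit) after 0.689 and 0.829 at 60 min, while Elk1 and Elk4 stood at 0.847 and 0.979. A second, dim Mrtfa probe gives no fold. Of 16 callable genes of small GTPase signalling and actin assembly at 120 min, 2 were called higher and 0 lower, beside the same 4.1% and 3.82%. Rhob, an inducible small GTPase, was called after 60 min (3.90-fold and 2.94-fold) and 120 min (3.61-fold and 3.28-fold), where its mean fold of 3.44 was 2.04 after normexp and loess. Rnd1, a small GTPase that opposes contraction, was at 2.55-fold and 2.25-fold at 120 min on its brightest probe (mean fold 1.98 after normexp and loess), and its other probe was called as well at 3.33-fold. The slope of Rhob, 0.41 per doubling of time (SE 0.044), passed (limma adjusted p = 0.0418), among 0.523% of all probes that were called rising and 0.202% falling. It did not pass without the 10, 15, 30 or 120 min time point, with the slide as a block or without the filter on dim probes, where no probe was called rising. Whether Rhob passed under the other alternatives was not examined. Of all probes 1 was called rising without the 60 min time point, and 1 after normexp with median centring. The slope of Egr3 passed as well but is given no value, since it was fitted over control signals that were not well above background.

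**Figure D5:**
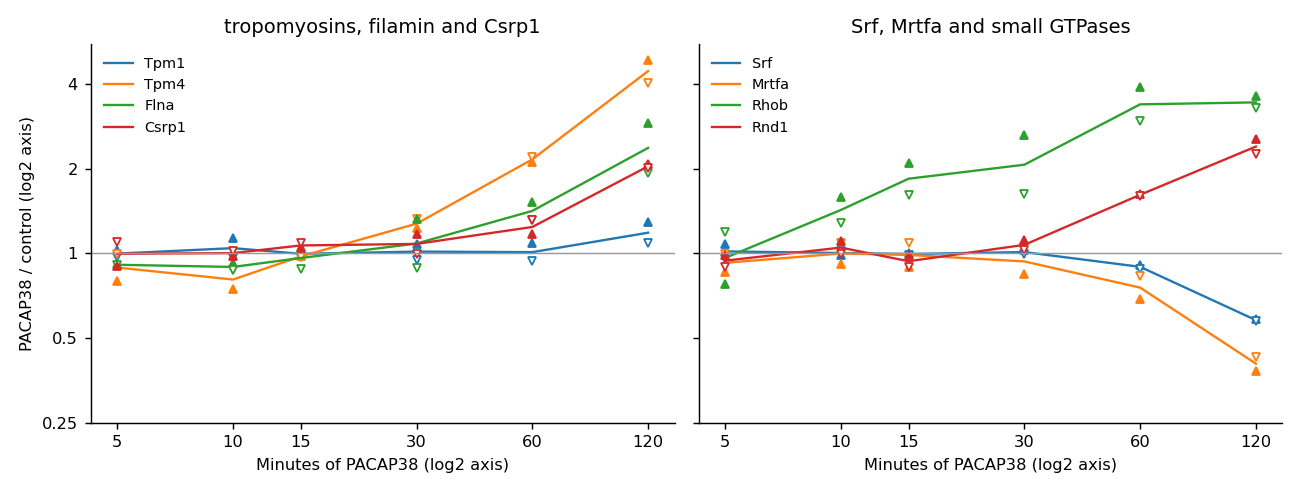
Folds of PACAP38 over control (log2 axis) against minutes of treatment (log2 axis), on the left for Tpm1, Tpm4, Flna and Csrp1 and on the right for Srf, Mrtfa, Rhob and Rnd1, brightest probe of each. Filled and open triangles are PACAP38 in Cy5 and in Cy3 and lines are means. At 120 min Tpm4 stands at 4.44 and Tpm1 at 1.18, and Mrtfa at 0.406 and Srf at 0.579.

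The genes whose course was most like that of the brightest Srf probe were sought among 1048 named probes with both RNAs well above background on all arrays and a call at 1 or more time points. By Pearson's r over the 6 mean log2 ratios, a description with so few points, they were Mettl7a (0.9996), Ccpg1os (0.9993), RGD1306227 (0.9993), Ttk (0.9992) and Ankrd34a (0.9991). All lay near the control at 30 min and stood between 0.144-fold and 0.471-fold at 120 min. For Flna, chosen after its values were seen, the first 3 were Srrd (0.9981), Ccsap (0.9974) and Hspb8 (0.9963), between 2.17-fold and 4.48-fold at 120 min. Such values are dominated by the last time point, and nothing on shared control follows from them.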

How the data were processed

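RNA of PC12 cells was measured on 12 Agilent whole rat genome arrays (4x44K, 60-base probes). The authors obtained processed intensity values from the scans with Agilent Feature Extraction (12.0.3.1 in the file headers, 11.0.1.1 in the submitters' processing notes). As deposited, the Cy3 and Cy5 intensities are background-subtracted and LOWESS dye-normalized, with surrogate values for dim spots, and mean and background intensities are given beside them. The deposited p-value of a spot tests its log ratio. The deposited log10 ratios (Cy5 over Cy3) equal those of the processed intensities, were not turned for the dye, and served as an alternative. Positions are on rn4.

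Ratios of PACAP38 to control were turned by the dye orientation in the labels. The 1639 control spots and 197 to 267 outlier spots per array were left out, and spots of a probe were averaged. No spot was saturated, and 38.4 to 49.6% of control-channel spots and 39.8 to 48.9% of PACAP38-channel spots were well above background, which limits the members that can be read. With 2 arrays of the same pools, their number limits the precision. Folds of both arrays were averaged on the log scale. If neither array showed 1 of the RNAs well above background, the fold is a lower bound, taken after Aquantile normalization.

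No test was made at a single time point. Slopes on log2 minutes and late (30, 60 and 120 min) minus early (5, 10 and 15 min) differences were fitted over 6 time points with limma (3.58.1, R 4.3.3). A probe entered if at least 1 RNA was well above background on both arrays of any time point. No slope is given for a gene of the lists whose control RNA was not well above background on all arrays. The fit had Benjamini-Hochberg adjustment over all probes at 0.05. A check on simulated data used the same noise for every probe and planted changes larger than those of the members. It therefore does not show how the fit performs on these data. The p-values measure the spread between time points, as each is 1 pool. Slides hold 5 and 10, 15 and 30, and 60 and 120 min. Alternatives were other limits, 1 array alone, normexp (offset 50) with loess or median centring, centred arrays, no filter on dim probes, outlier spots kept, time in minutes, a block for the slide, and 1 time point fewer. Python 3.11.15 (pandas 2.3.3, numpy 2.4.6, matplotlib 3.10.9) served for the rest. The proteome measurements were not analysed here.

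The members and gene lists were chosen with earlier results of these data known. All members were named, and genes of the lists where their brightest probe was called at 1 or more time points, with Elk1, Elk4, Wdr1, Actc1, Actn4 and Cfl1 added after their values were seen. Likeness was limited to probes with an NM accession.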

Additional observations from a re-analysis of the deposited data

Results flagged for a closer look

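Of the genes named above, Rhob had a PACAP38 effect that differed between time points by the test of the slope itself. Its log2 ratio gained 0.41 per doubling of time. It lost significance without the 10, 15, 30 or 120 min time point, with the slide as a block and without the filter on dim probes, where no probe was called rising. Whether Rhob passed under the other alternatives was not examined. In the main fit Egr3 passed as well, over control signals not well above background, so no value is given. No member of the Srf group met this mark.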

How the results depend on the processing

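At 5, 10, 15, 30 and 60 min no member probe was called under any of the 10 alternatives tried. At 120 min 1 probe (Flna) was called higher with the 1.5-fold limit and with array medians centred, and from 0 to 1 with 1 array alone, while 1 (Srf) was called lower with the 1.5-fold limit. Member probes passing for slope were 0 rising and 0 falling, and 2 rising (Flna and the repeated Actb probe) and 1 falling (Srf) on minutes. The cause was not tested. Over all probes, 106 rose and 41 fell on log2 time, 22 and 5 with normexp and loess, 1 and 0 with normexp and median centring, 83 and 44 with array medians centred, 0 and 0 without the filter on dim probes or with slide as a block, and 2073 and 3268 on minutes. With 1 array alone 3 to 27 rose and 0 to 2 fell, and with a time point left out 0 to 121 rose and 0 to 32 fell. Late minus early gave 0 in both directions by limma (1311 higher and 1396 lower at an unadjusted p under 0.05), 0 to 2 higher with 1 array, 0 to 286 higher and 0 to 180 lower with a time point left out (the highest without 30 min), and 61 and 7 for 60 and 120 against 5 and 10 min. The late minus early difference of Actg1 turned from 0.13 to -0.017 without 120 min (highest 0.26 without 30 min) and to -0.068 with normexp and median centring. By mean signal minus background Zyx ranked 10 and Tagln 9 in brightness, in place of 9 and 10. No paired analysis was possible because the replicate number names the dye orientation of 2 arrays that hold the same pools. Depth of signal limits the results: 3 genes had no measurable RNA, and 1 dim probe each carries Myh9 and the second Srf value.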
